A study of Homo sapiens with 6 samples.

Results

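TRIM proteins are a large family of E3 ubiquitin ligases, described here across 6 libraries of a human myeloid leukaemia line. The members were the rows of the count table whose Ensembl gene ID maps to a protein-coding symbol made of TRIM, a number and at most 1 letter. This rule gave 72 genes of 34371 rows, each symbol with 1 row. The symbols TRIM17 and TRIM39 were not analysed here. The cells were ME-1, an established line from an acute myeloid leukaemia with the CBFB::MYH11 fusion. They carried either an empty vector (3 libraries) or a vector that overexpresses SPNS2 (3 libraries), an exporter of sphingosine-1-phosphate, and both groups had gone through selection for infected cells. Whether replicate libraries derive from different cultures or transductions is not stated in the labels, so p-values measure the spread between these libraries alone, which may be technical.

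A typical TRIM protein carries a RING domain, which recruits a ubiquitin-charged E2 enzyme. B-box zinc fingers and a coiled coil, through which the proteins dimerise, follow the RING. Some members, such as TRIM14, lack a RING. The carboxy-terminal part differs between subfamilies and recognises the target, most often by a PRY-SPRY (B30.2) domain. Many members are induced by interferon and act in innate immunity, either by binding viral capsids or by ubiquitinating sensors and kinases of the interferon pathway. Others repress transcription (the TIF1 group), bind microtubules, or act in muscle and nerve cells.

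The members were read in 2 sets. The interferon-linked set held 11 genes that are induced by interferon or act in its signalling: TRIM5, TRIM6, TRIM14, TRIM21, TRIM22, TRIM25, TRIM26, TRIM34, TRIM38, TRIM56 and TRIM69. The other 61 members formed the second set. In the first set TRIM5, TRIM6, TRIM34 and TRIM22 follow each other on chromosome 11 in the RefSeq annotation with no other protein-coding gene between them except the TRIM6-TRIM34 read-through. The promoters of TRIM5 and TRIM6 are shown because both genes rose and overlap in that annotation. Each is 300 bases, from 250 before to 50 after the annotated start, taken from RefSeq on GRCh38.p14 and written 5′ to 3′ along the gene. Capitals mark matches to the core of the interferon-stimulated response element (ISRE), searched on both strands as 2 copies of GAAA with 2 bases of any kind between them; a match on the other strand reads as TTTC copies. The TRIM5 promoter is chr11:5685025-5685324 (minus strand) and the TRIM6 promoter is chr11:5596387-5596686 (plus strand).
TRIM5: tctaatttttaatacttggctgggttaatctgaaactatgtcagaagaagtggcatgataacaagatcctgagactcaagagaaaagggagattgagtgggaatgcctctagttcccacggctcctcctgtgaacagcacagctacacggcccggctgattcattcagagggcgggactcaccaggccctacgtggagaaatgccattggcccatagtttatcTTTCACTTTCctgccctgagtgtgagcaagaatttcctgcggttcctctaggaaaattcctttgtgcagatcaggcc
TRIM6: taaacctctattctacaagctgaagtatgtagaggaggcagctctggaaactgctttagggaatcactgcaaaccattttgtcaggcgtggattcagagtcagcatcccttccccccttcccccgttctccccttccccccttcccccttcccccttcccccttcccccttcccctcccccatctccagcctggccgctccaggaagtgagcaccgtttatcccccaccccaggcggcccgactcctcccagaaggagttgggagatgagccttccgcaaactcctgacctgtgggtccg

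RefSeq promoters were found for 56 of the 72 members and for 10 of the 11 interferon-linked genes, all but TRIM22. Of those 10 genes, with 11 promoters, 6 held the ISRE core: TRIM5, TRIM14, TRIM21, TRIM26, TRIM34 and TRIM69. In 6 of these 11 promoters it was found, in the second set in 4 of 62 promoters (of 46 genes), and over all 35116 promoters of the same length the share was 3.57%. The interferon-linked set was drawn up from known interferon biology and with earlier results of these data known. Its matches are therefore not independent of how it was chosen. The windows around the other 5 matches are shown to compare their letters, and in TRIM21 and TRIM26 a pair of matches overlaps. They lie at chr11:5624891-5624940 (plus, TRIM34), chr11:4393653-4393705 (minus, TRIM21), chr9:98119219-98119268 (minus, TRIM14), chr6:30213565-30213620 (minus, TRIM26) and chr15:44736446-44736495 (plus, TRIM69).
TRIM34: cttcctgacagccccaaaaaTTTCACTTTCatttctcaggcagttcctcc
TRIM21: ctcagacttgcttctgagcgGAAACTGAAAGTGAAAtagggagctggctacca
TRIM14: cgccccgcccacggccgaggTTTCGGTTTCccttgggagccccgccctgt
TRIM26: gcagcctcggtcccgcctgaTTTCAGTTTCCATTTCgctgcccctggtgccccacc
TRIM69: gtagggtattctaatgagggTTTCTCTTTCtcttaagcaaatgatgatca

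A second motif, TTCNNNGAA, the core of the gamma-activated site, was found in 0 of the 11 interferon-linked promoters. It was in 15 of the 62 others, which belong to 12 of 46 genes, against 7.66% of all promoters. Among the tested members of the second set it was in 5 of 36 promoters (4 of 26 genes). TRIM49 and TRIM49C had matches at the same positions, as had TRIM64 and TRIM64B, so these promoters are not all separate cases. A match is a description of letters and no evidence of binding, and a promoter without a match says only that these letters are not in this window. Of the 6 interferon-linked genes with the ISRE core, TRIM5 rose and the other 5 were not called. TRIM6, TRIM38 and TRIM56 rose and had no match in this window, and the fifth that rose, TRIM22, was not searched.

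Library totals ranged from 28605187 to 38489992 estimated counts. Levels are given as CPM, counts per 1000000 of the normalised library size. Where a library had 0 counts, its level could still be as high as 0.0778 to 0.105 CPM depending on the library, a limit that covers counting error only. The vector SPNS2 sequence was at 763 to 789 CPM in the SPNS2 libraries and at 0 to 0.233 CPM with the empty vector. Of the myeloid progenitor markers, CD34 was at 97.4 CPM or above and MPO at 25100 CPM or above in all 6 libraries. HBB, MS4A1 and KRT19 were at 0, and COL1A1 and COL3A1 were at most at 0.156 CPM. The epithelial adhesion gene EPCAM was at 119 to 143 CPM; its part in the results was not tested.

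Of the 72 members, 47 had enough counts to be tested and 25 did not. Among the untested ones, 20 had 0 counts in all 6 libraries, including TRIM63, a muscle ligase of the MURF group, and TRIM29. Of the other 5, TRIM2 had at most 5 counts in a library, and TRIM43B, TRIM50, TRIM55 and TRIM67 had at most 1. Per kilobase of the longest GENCODE 29 transcript, the highest mean level in empty vector cells was that of TRIM28, with 249 CPM per kb. TRIM65 (50.5 CPM per kb), TRIM14 (27.6), TRIM25 (22.1) and TRIM21 (18.8) followed, and TRIM72, a muscle membrane repair protein, was lowest of the tested members at 0.0743 CPM per kb. TRIM28 alone held 31.1% to 34.3% of the summed CPM of all members. That sum was 2152 to 2241 CPM with the empty vector and 2163 to 2241 CPM with SPNS2, so the groups overlapped. It includes TRIM26 and TRIM27, whose rows jump between replicates as described below. Without these rows the sum was 2149 to 2194 CPM with the empty vector and 2134 to 2193 CPM with SPNS2, which also overlap. In bulk RNA, fewer cells that express a gene and less RNA per cell cannot be told apart, for these and all later values.

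**Figure D1:**
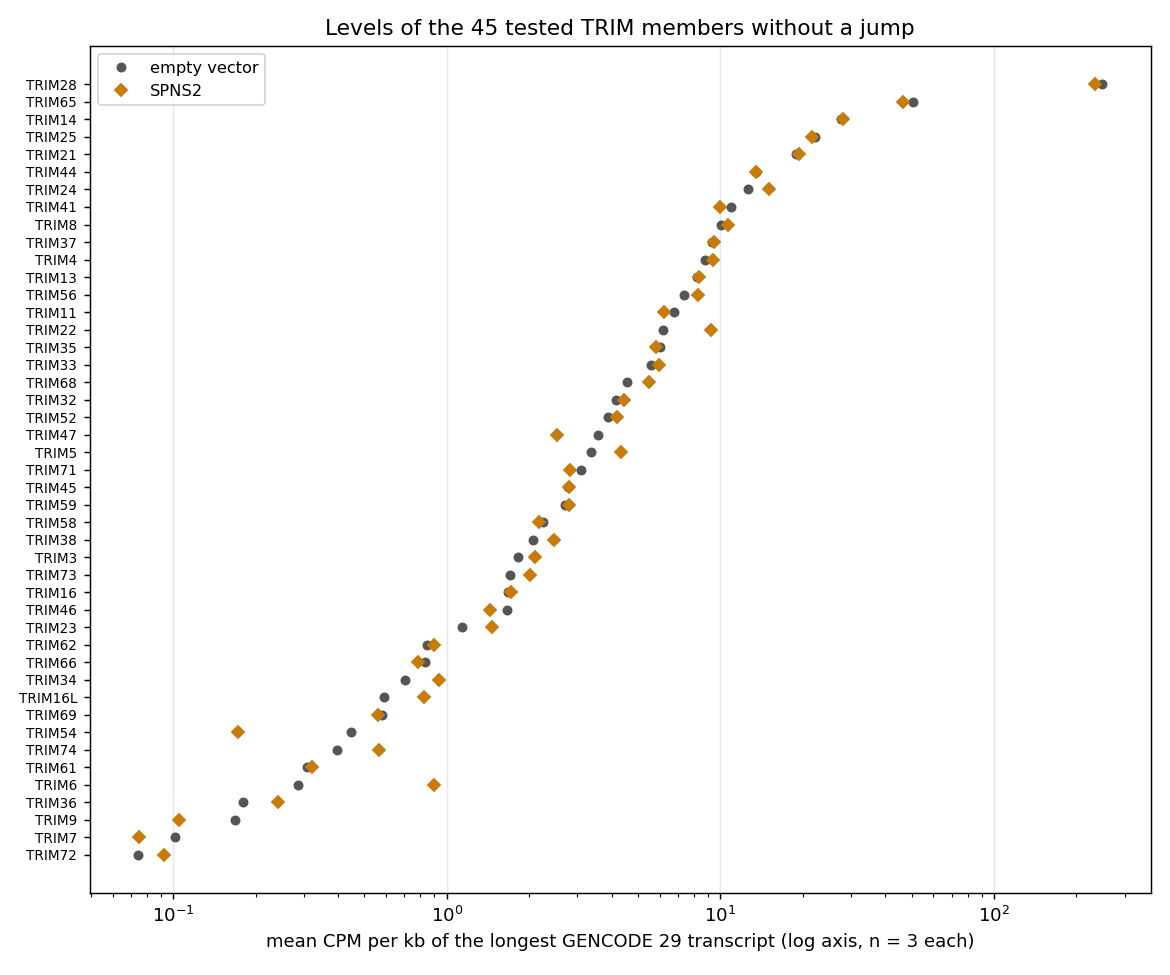
Mean level of the 45 tested members without a jump between replicates, in CPM per kb of the longest GENCODE 29 transcript on a log axis, with empty vector as grey circles and SPNS2 as orange diamonds (n = 3 each). TRIM28 stands apart at 249 CPM per kb with the empty vector, and TRIM6 and TRIM54 show the widest gaps between the groups.

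With SPNS2, 9 of the 47 tested members rose and 5 fell at an adjusted p under 0.05 (edgeR quasi-likelihood test, adjusted over all 13308 features), and 33 were not called. The called share was 29.8%, against 24.5% of all tested features. The share that rose was 19.1%, against 11.9% of all features, and the share that fell was 10.6%, against 12.6%. The groups did not overlap for 15 members in the higher direction and 8 in the lower; of all features 40.1% did not overlap, 19.8% higher and 20.3% lower. Most changes were small: 11 of the 14 called members changed by less than 0.5 on the log2 scale, and their median absolute change was 0.318. The members that fell numbered 2 without SPNS2 library 1 and 3 without SPNS2 library 3, all of them outside the interferon-linked set described next.

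All 11 interferon-linked members were tested. Of these 5 rose (TRIM6, TRIM22, TRIM5, TRIM38 and TRIM56) and 6 were not called, with a median log2 fold change of 0.255. None fell by edgeR: 0 were lower at an unadjusted p under 0.05, and DESeq2 and limma voom also called 0 lower. In the second set 36 members were tested, of which 4 rose, 5 fell and 27 were not called, with a median of 0.0307. Without SPNS2 library 1, 2 of them rose and 2 fell. The median over all tested features was 0.00263. The share that rose was 45.5% in the interferon-linked set and 11.1% in the others, beside 11.9% of all tested features. The share that fell was 0% and 13.9%, beside 12.6% of all tested features. These shares are descriptions of lists, and the difference between the lists has no test, since genes are not replicates. Without TRIM6, which had the widest change, 4 of 10 interferon-linked members rose, with a median of 0.214. Without both TRIM6 and TRIM26, which had 0 counts in empty vector library 1, 4 of 9 rose, with a median of 0.173. Of 11 regulators of innate signalling, 9 were tested. With these added, 7 members of the first set rose and 1 fell, and its median was 0.0964. Of the remaining members 2 rose and 4 fell, with a median of 0.021. The lists were chosen with earlier results of these data known, so their border is not independent of these values.

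**Figure D2:**
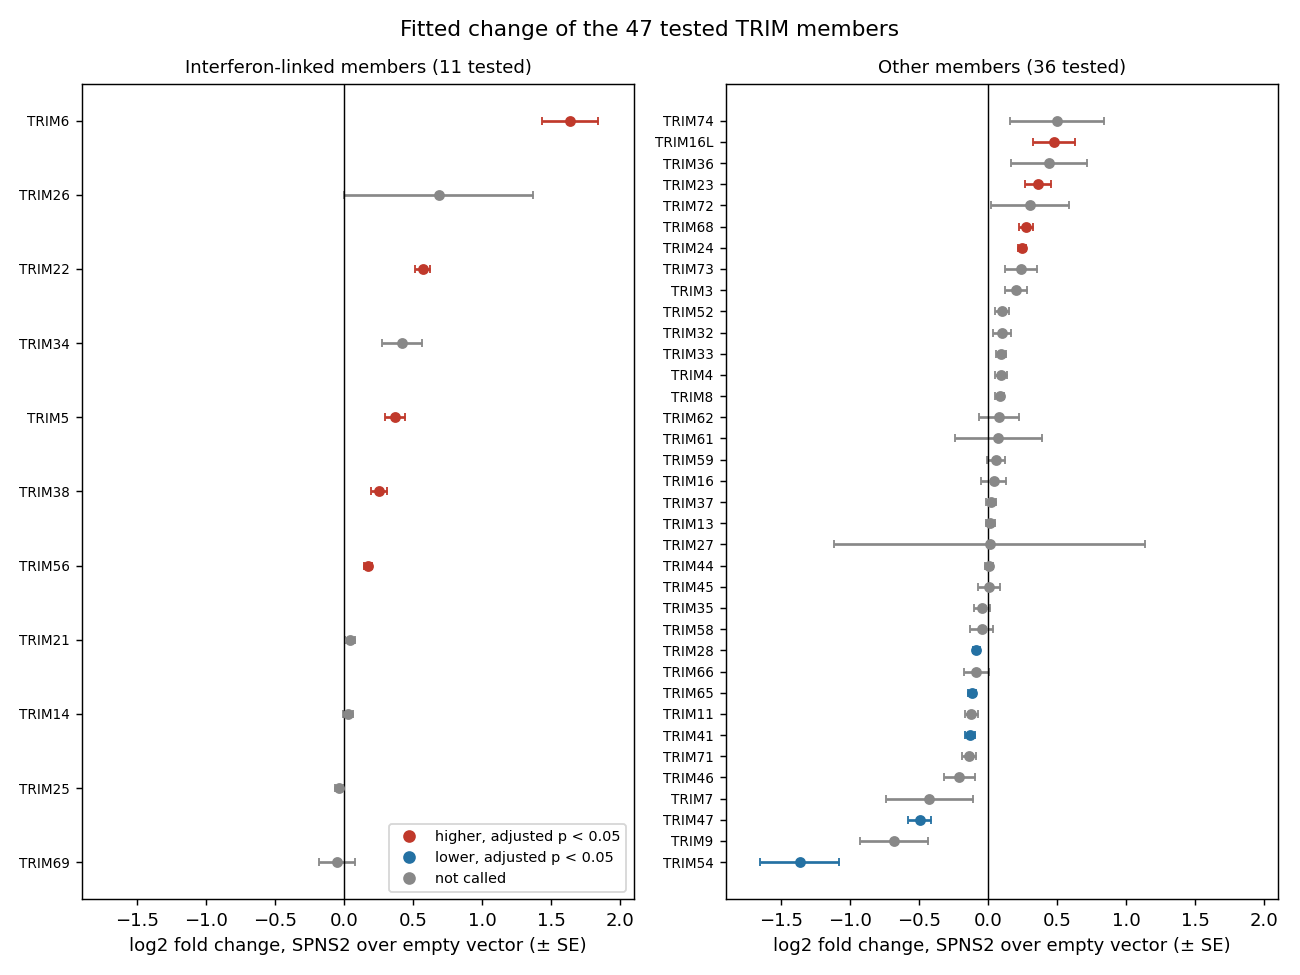
Fitted log2 fold change, SPNS2 over empty vector, with its standard error for the 11 interferon-linked members (left) and the 36 other tested members (right), red for higher, blue for lower and grey for not called. The 5 called interferon-linked genes lie to the right of 0, while the called genes of the other set lie on both sides (4 higher, 5 lower), and TRIM26 and TRIM27 have the wide errors of rows that jump between replicates.

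TRIM6 showed the largest rise. It makes free ubiquitin chains that activate the kinase IKBKE in interferon signalling. Its level (ENSG00000121236.21) was 1.22, 1.02 and 0.682 CPM in the empty vector libraries and 3.21, 3.21 and 2.76 CPM in the SPNS2 libraries. All SPNS2 libraries were above all empty vector libraries. The counts behind these values were low, 22 to 47 with the empty vector and 93 to 104 with SPNS2. The log2 fold change was 1.64 (SE 0.201, edgeR adjusted p = 0.000220), a 3.11-fold rise, and lay between 1.44 and 1.85 when each library was left out in turn.

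TRIM6 overlaps the read-through transcript TRIM6-TRIM34, which had 0 counts in all 6 libraries. TRIM34, a capsid-binding relative of TRIM5, was at 1.84, 1.76 and 1.64 CPM with the empty vector and at 2.19, 2.35 and 2.46 CPM with SPNS2. These groups did not overlap either, but the log2 fold change of 0.42 (SE 0.145) missed the threshold (edgeR adjusted p = 0.0581). With a filter at a mean CPM of 1, TRIM34 was called (adjusted p = 0.0492). When TRIM6, TRIM34 and the read-through row were summed, the log2 fold change was 0.98 (SE 0.125, edgeR adjusted p = 0.000281). How reads were split between these rows is uncertain, and their sum also rose.

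TRIM22, an interferon-induced antiviral ligase, had the smallest p of all members. It was at 19.8, 18.0 and 17.7 CPM with the empty vector and at 27.2, 27.6 and 27.8 CPM with SPNS2. The SPNS2 libraries lay close together and well above the others. Its log2 fold change was 0.57 (SE 0.0526, edgeR adjusted p = 3.54e-05). TRIM5, which restricts retroviruses by coating their capsids, was at 10.9, 11.3 and 9.77 CPM with the empty vector and at 14.7, 13.5 and 13.2 CPM with SPNS2 (log2 fold change 0.37, SE 0.0741, adjusted p = 0.00434). The TRIM5 gene overlaps TRIM6 and TRIM34 on the other strand in RefSeq, and whether strand was used in counting is not given in the sources used here, so reads of these overlapping genes cannot be told apart with certainty.

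TRIM38 and TRIM56 rose by less. TRIM38, an interferon-induced regulator of innate signalling, was at 19.0, 19.4 and 19.7 CPM with the empty vector and at 21.4, 24.6 and 23.4 CPM with SPNS2 (log2 fold change 0.25, SE 0.0565, edgeR adjusted p = 0.00752). TRIM56, which supports signalling from cytosolic DNA and double-stranded RNA, was at 81.1, 79.5 and 80.6 CPM with the empty vector. It was at 89.7, 93.9 and 88.3 CPM with SPNS2 (log2 fold change 0.17, SE 0.0321, adjusted p = 0.00272). For both genes every SPNS2 library was above every empty vector library. All 5 interferon-linked genes that rose were called in each of the 6 fits that left out a single library.

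The interferon-linked members with the highest levels per kb, TRIM14, TRIM25 and TRIM21, were not called, and neither was TRIM69. TRIM14, an adaptor at the mitochondrial antiviral protein MAVS that lacks a RING, was at 126, 122 and 120 CPM with the empty vector and at 122, 130 and 124 CPM with SPNS2. TRIM25, which ubiquitinates the RNA sensor RIG-I, was at 133, 125 and 123 CPM with the empty vector and at 122, 125 and 125 CPM with SPNS2. The groups overlapped for both genes, with log2 fold changes of 0.03 (SE 0.0346) and -0.03 (SE 0.0347). TRIM21, the antibody receptor of the cytosol, was at 35.9, 35.9 and 37.0 CPM with the empty vector and at 36.9, 37.1 and 38.1 CPM with SPNS2. TRIM69 was at 3.08, 3.48 and 3.35 CPM with the empty vector and at 2.90, 3.63 and 3.02 CPM with SPNS2. Their log2 fold changes were 0.04 (SE 0.0356) and -0.05 (SE 0.131), and these groups overlapped too. The adjusted p of these 4 genes ranged from 0.425 (TRIM21) to 0.816 (TRIM69) by edgeR.

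**Figure D3:**
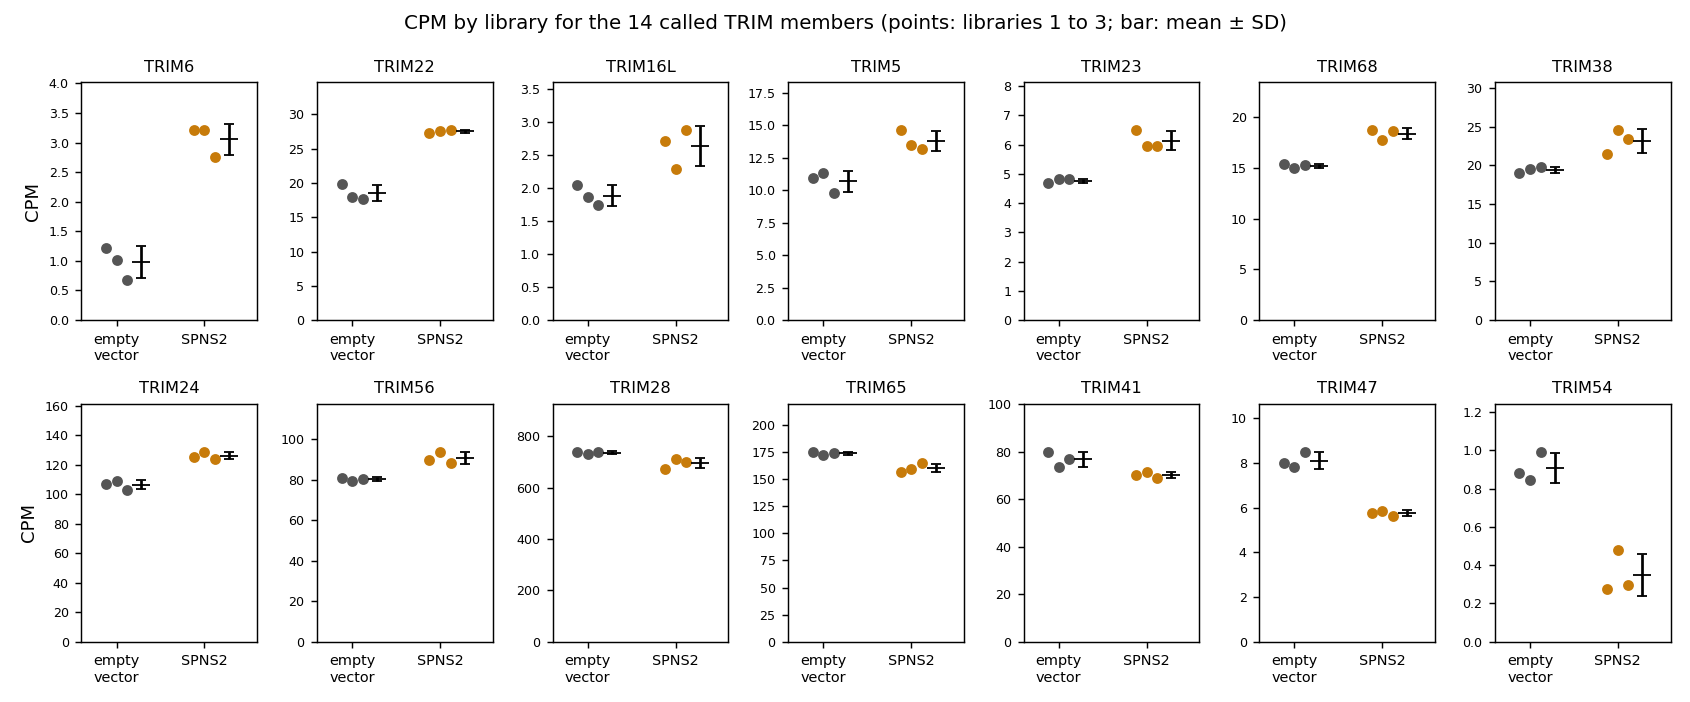
CPM of the 14 called members in each library, ordered by fold change, with 3 empty vector libraries in grey, 3 SPNS2 libraries in orange, and the mean ± SD as a bar beside them; each panel starts at 0. In all 14 panels the groups do not overlap; the gap is wide for TRIM6, TRIM22, TRIM47 and TRIM54 and narrow for TRIM28, TRIM65 and TRIM41.

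Rows were checked for jumps, defined as a highest library at least 2 times the lowest within a group with exact 95% Poisson intervals that do not overlap. Of the 72 members 2 jumped, TRIM27 and TRIM26, both tested and both on chromosome 6. They make up 4.26% of the tested members, against 2.68% of all tested features (357 of 13308) and 5.62% of those on chromosome 6 (34 of 605). TRIM27, a ligase first known as RET finger protein, had no counts in empty vector libraries 1 and 3, 2392 in library 2, and 842, 1414 and 344 in the SPNS2 libraries. That is a level of 84.0 CPM (95% interval 80.7 to 87.4) in empty vector library 2 alone, beside 26.0, 45 and 10.2 CPM in the SPNS2 libraries. TRIM27 was the only member with a jump in both groups, where 0.714% of all tested features had one.

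For TRIM27 the fit gave a log2 fold change of 0.01 with an SE of 1.13 (edgeR adjusted p = 0.995), and no direction can be read from it. Leaving out empty vector library 2 turned it into a call (adjusted p = 0.00158), with both remaining empty vector libraries at 0, and leaving out empty vector library 1 gave -0.61. TRIM26, which promotes turnover of the transcription factor IRF3, had counts of 0, 72 and 86 in the empty vector libraries, against 100, 86 and 77 in the SPNS2 libraries. Only empty vector library 1 stood apart there: the other 5 libraries were at 2.28 to 3.08 CPM. The fitted change of 0.69 on the log2 scale (SE 0.684, edgeR adjusted p = 0.517) rests on that library, without which TRIM27 was the 1 remaining row that jumped. Of the 97 tested features that jumped and had a library at 0 counts, 13 were on chromosome 6; why these rows jump was not tested. The annotation behind the counts and its treatment of alternate copies of chromosome 6 regions are not given, and whether reads of these genes were counted in other rows was not tested. The levels of TRIM26 and TRIM27, and the 0 counts of TRIM10, TRIM15, TRIM31 and TRIM40 on the same chromosome, are therefore those of the deposited rows and may not be the whole level of the genes.

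**Figure D4:**
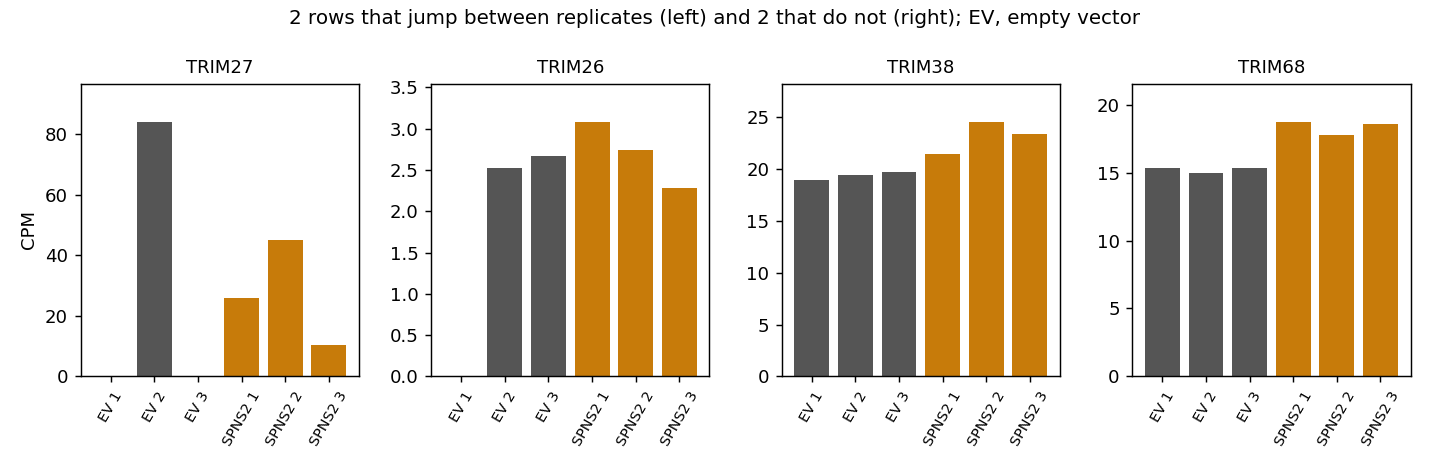
CPM in each of the 6 libraries for TRIM27 and TRIM26, which jump between replicates, and for TRIM38 and TRIM68, which do not; bars start at 0, EV is the empty vector. TRIM27 is at 0 in EV 1 and EV 3 and at 84.0 CPM in EV 2, and TRIM26 is at 0 in EV 1 alone, while the replicates of TRIM38 and TRIM68 are of similar height.

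Among regulators of innate signalling that were not placed in the interferon-linked set, 9 were tested, of which 2 rose and 1 fell. Over all tested features 11.9% rose and 12.6% fell. TRIM68 was at 15.35, 14.96 and 15.33 CPM with the empty vector and at 18.75, 17.76 and 18.59 CPM with SPNS2 (log2 fold change 0.27, SE 0.0505, edgeR adjusted p = 0.00276). TRIM23, which carries an ARF GTPase domain, was at 4.69, 4.81 and 4.81 CPM with the empty vector and at 6.51, 5.95 and 5.96 CPM with SPNS2. TRIM65, which ubiquitinates the RNA sensor IFIH1, was at 175, 172 and 174 CPM with the empty vector and at 157, 160 and 164 CPM with SPNS2. The groups were apart for all 3 genes. The log2 fold change was 0.36 for TRIM23 (adjusted p = 0.0165) and -0.12 for TRIM65 (adjusted p = 0.0104). TRIM23 was not called without SPNS2 library 1 (adjusted p = 0.0742), without empty vector library 2 (0.0513) or with DESeq2 (0.0768), and TRIM65 was not called without SPNS2 library 1 (0.0527). The 6 others in this group, TRIM4, TRIM8, TRIM13, TRIM27, TRIM32 and TRIM35, were not called.

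The TIF1 proteins carry a PHD finger and a bromodomain and regulate transcription on chromatin. They numbered 4, of which 1 rose, 1 fell and 2 were not called, where 11.9% of all tested features rose and 12.6% fell. TRIM24, a coregulator of nuclear receptors, was at 107, 109 and 103 CPM with the empty vector and at 125, 129 and 124 CPM with SPNS2 (log2 fold change 0.25, SE 0.0314, edgeR adjusted p = 0.000291). TRIM28, the corepressor of KRAB zinc finger proteins, was at 740, 731 and 737 CPM with the empty vector and at 672, 710 and 699 CPM with SPNS2. That was a log2 fold change of -0.09, with an SE of 0.0247 and an adjusted p of 0.0265. TRIM24 kept its call without each single library; TRIM28 was not called without SPNS2 library 1 (0.116) or 3 (0.0506), without empty vector library 2 (0.0541) or 3 (0.0706), or with the replicate number as a block (0.0546).

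TRIM33, a TIF1 protein that acts with SMAD4 and in blood cell formation, was at 46.1, 47.7 and 46.2 CPM with the empty vector and at 50.9, 49.9 and 48.5 CPM with SPNS2. TRIM66 was at 9.64, 8.53 and 8.53 CPM with the empty vector and at 7.65, 8.94 and 8.60 CPM with SPNS2. The groups of TRIM33 did not overlap and those of TRIM66 did, and neither gene was called (edgeR adjusted p = 0.0648 and 0.534). Of 9 genes that work with TRIM28 in silencing, 1 rose and 1 fell, where 11.9% of all tested features rose and 12.6% fell. CBX5, a heterochromatin protein, had a log2 fold change of 0.12, and CHD3, a remodeller of the NuRD complex, one of -0.20 (edgeR adjusted p = 0.00799 and 0.00150).

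TRIM54 had the largest fall. It is a microtubule-binding MURF protein of striated muscle and was at a low level here, 0.881, 0.843 and 0.993 CPM with the empty vector and 0.278, 0.477 and 0.296 CPM with SPNS2. The groups did not overlap, on 24 to 34 counts against 9 to 15. Its log2 fold change was -1.37 (SE 0.288, edgeR adjusted p = 0.00565). Of 5 tested members of the cytoskeletal, muscle and neuronal group it was the 1 that fell, where 12.6% of all tested features fell. TRIM9, a neuronal ligase, was at 1.04, 0.843 and 0.776 CPM with the empty vector and at 0.586, 0.509 and 0.563 CPM with SPNS2, and was not called (log2 fold change -0.68, adjusted p = 0.0641).

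TRIM47 was the next largest fall that was called, from 8.01, 7.79 and 8.50 CPM to 5.77, 5.86 and 5.60 CPM. Its log2 fold change of -0.50 (SE 0.0842, edgeR adjusted p = 0.00160) was called without each single library. TRIM41 was at 80.0, 73.5 and 76.8 CPM with the empty vector and at 70, 71.6 and 68.9 CPM with SPNS2 (log2 fold change -0.13, adjusted p = 0.0228). The TRIM41 groups were close, and the call was lost when any of 4 libraries was left out: 1 (0.0714) or 3 (0.0546) of the empty vector, 1 (0.0698) or 3 (0.0735) of SPNS2.

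TRIM16L was at 2.05, 1.86 and 1.74 CPM with the empty vector and at 2.71, 2.29 and 2.88 CPM with SPNS2. It is a near copy of part of TRIM16, listed by RefSeq as a transcribed pseudogene and by GENCODE as protein-coding. Because of this likeness the split of reads between them is uncertain. Its log2 fold change of 0.48 (edgeR adjusted p = 0.0401) was not called with DESeq2 (0.162), with no low-count filter (0.0672), with the replicate block (0.0620) or in 4 of 6 fits without a single library. Those 4 left out library 2 (0.0941) or 3 (0.107) of the empty vector, or library 1 (0.110) or 3 (0.126) of SPNS2. TRIM16 itself was at 5.47, 5.62 and 5.68 CPM with the empty vector and at 5.61, 5.57 and 6.05 CPM with SPNS2, which overlap. With both rows summed, the log2 fold change was 0.16 (adjusted p = 0.174).

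TRIM73, TRIM74 and TRIM50 are close copies of each other. TRIM73 was at 7.623, 5.864 and 6.236 CPM with the empty vector and at 7.802, 7.001 and 8.509 CPM with SPNS2. TRIM74 was at 0.700, 0.597 and 0.310 CPM with the empty vector and at 0.555, 0.732 and 1.01 CPM with SPNS2. The groups overlapped for both, and TRIM50 had 1 count, in SPNS2 library 2. The 3 rows summed gave a log2 fold change of 0.26 (adjusted p = 0.132).

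Of the NHL members, which bind RNA or cytoskeletal targets through a beta-propeller, TRIM3 and TRIM71 were tested. TRIM71, known from stem cells as LIN41, was at 28.3, 26.7 and 25.5 CPM with the empty vector and at 24.8, 24.6 and 23.8 CPM with SPNS2. TRIM3 was at 8.63, 7.55 and 7.97 CPM with the empty vector and at 9.19, 9.55 and 9.13 CPM with SPNS2. Both pairs of groups were apart in opposite directions, but neither was called (edgeR adjusted p = 0.0643 and 0.0910). TRIM44, abundant at 175 ± 6.41 and 175 ± 3.67 CPM (SD, n = 3 each), and TRIM37, at 40.4 ± 0.938 and 41.0 ± 1.003 CPM, had log2 fold changes of 0.01 and 0.02. TRIM58, a ligase of red cell maturation, was at 7.25 ± 0.310 and 7.03 ± 0.257 CPM (SD, n = 3 each) and was not called.

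Members on chromosome 11, a grouping made after the values were seen, included 9 that were tested, of which 4 rose (TRIM5, TRIM6, TRIM22 and TRIM68). Of all tested features 11.9% rose, and TRIM5, TRIM6 and TRIM22 are overlapping or adjacent genes of 1 cluster. The median log2 fold change of the 9 was 0.272.

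Partner genes were read from lists of known partners, and their counts stand beside 11.9% of all tested features that rose and 12.6% that fell. Of 12 E2 enzymes that TRIM ligases use, 1 rose: UBE2D1, from 8.09, 8.71 and 8.75 CPM to 10.5, 10.2 and 10.4 CPM (log2 fold change 0.28, edgeR adjusted p = 0.0164). UBE2N and UBE2V2, which build chains with TRIM5 and TRIM21, had log2 fold changes of -0.02 and 0.03. UBE2D1 was not called without empty vector library 1 (0.0562), SPNS2 library 1 (0.0515) or 3 (0.0519), or with DESeq2 (0.0694).

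Of 22 listed interferon signalling genes 20 were tested, and IRF9 and STING1 were not analysed here. Of the 20, 5 rose and 2 fell, with a median of 0.049, where 11.9% of all tested features rose and 12.6% fell. The 3 with the smallest p were IRF1, an interferon-induced transcription factor (0.46, adjusted p = 4.20e-05), IFIH1, the sensor targeted by TRIM65 (0.46, adjusted p = 0.000302), and TRAF3, an adaptor upstream of TBK1 (-0.25, adjusted p = 0.000556). STAT2 and TAB3 also rose, the latter not called without SPNS2 library 1 (0.0535) or 2 (0.0844) or with DESeq2 (0.0920). IRF7, an interferon-induced transcription factor, was at 2.49, 2.81 and 6.52 CPM with the empty vector and at 2.41, 1.94 and 1.22 CPM with SPNS2. Empty vector library 3 stood far above the rest, a jump by the rule above, although the groups did not overlap. The fitted log2 fold change was -1.08 (adjusted p = 0.0440). It was -0.51 and not called without that library (0.183), and it was also not called without SPNS2 library 1 (0.0553), 2 (0.0996) or 3 (0.155), with DESeq2 (0.146), with limma voom (0.0849) or with the replicate block (0.0853). IKBKE, the kinase TRIM6 acts on, had a log2 fold change of -0.10 and RIG-I one of 0.63, and neither was called (adjusted p = 0.114 and 0.112). Of 6 tested relatives outside the naming rule, 1 rose, where 11.9% of all tested features rose. This was PML, the interferon-induced organiser of nuclear bodies also called TRIM19. It went from 65.2, 66.6 and 63.7 CPM to 69.1, 76.0 and 70.2 CPM (log2 fold change 0.14, edgeR adjusted p = 0.0260). PML was not called without empty vector library 1 (0.0543) or 3 (0.0860) or without SPNS2 library 2 (0.0998).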

How the data were processed

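Polyadenylated RNA was sequenced from stranded TruSeq libraries, per the labels' protocols. The authors deposited estimated counts for each gene, made with Salmon per the submitters' processing notes. Salmon's version, the genome build and the annotation behind the counts are not given in the sources used. The deposited values were whole numbers (0 were not). Symbols were matched by Ensembl ID without version for 29081 of 34370 rows, biotype and length came from GENCODE 29, and promoters from RefSeq GRCh38.p14.

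The 3 empty vector and 3 SPNS2 libraries, all 6 columns, were grouped by the labels. Counts were filtered with filterByExpr (minimum count 10, total 15), normalised with TMM, whose factors were 0.993 to 1.01, then put through the quasi-likelihood test of edgeR 4.0.16 in R 4.3.3, group as the only term, with Benjamini-Hochberg adjustment over 13308 features and a threshold of 0.05. Each SE was derived as log2 fold change, unsigned, divided by the root of the F statistic. The pipeline was tested on simulated counts. Alternatives were RLE factors, DESeq2 1.42.0, limma 3.58.1 voom, other filters, a replicate block, each library left out, other list borders and summed rows.

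Values by library are given for called members, interferon-linked and TIF1 members, rows that jump and rows sharing reads; a few others (by library TRIM3, TRIM9 and TRIM71, as means TRIM37, TRIM44 and TRIM58, and among partners UBE2N, UBE2V2, IKBKE, RIG-I and the interferon genes past the 3 of smallest p) were chosen after their values were seen. The members and lists were chosen with earlier results of these data known. A few marker and partner genes are not reported here.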

Additional observations from a re-analysis of the deposited data

How the results depend on the processing

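All 14 called members kept their direction under every alternative fit in which they were tested, and 8 were called in all 12 of these fits, namely TRIM5, TRIM6, TRIM22, TRIM24, TRIM38, TRIM47, TRIM56 and TRIM68; TRIM54 was called in the 11 in which it was tested. The interferon-linked risers numbered 5 in each fit except the filter at a mean CPM of 1 (6). Other members called higher numbered 2 with DESeq2. The median of the other members, 0.0307, was 0.0155 with DESeq2, 0.0434 with limma voom, 0.0111 with no low-count filter, 0.0228 with the mean CPM filter, and 0.047 with the replicate block. With the replicate block, 8 members rose and 4 fell. Same-numbered libraries did not deviate together (correlations -0.0193 to 0.0375). With 3 libraries in each group this cannot show whether same-numbered libraries were prepared together. With TRIM6 moved, the medians were 0.214 (interferon-linked) and 0.0404 (others), and the same values, 0.214 and 0.0404, were found without rows that jump, an alternative chosen after seeing the data. With the wider interferon-linked list, 1 of its members fell, 2 others rose, and the medians were 0.0964 and 0.021. Leaving out each library, members called higher numbered 7 to 10 and lower 2 to 5; interferon-linked risers 5 to 5 and fallers 0 to 0; other members higher 2 to 5 and lower 2 to 5; the medians were 0.179 to 0.306 and 0.0123 to 0.0501; and rows that jump numbered 1 (without empty vector library 1) to 2. Values near 0 changed sign when a library was left out: TRIM14 (-0.000795 to 0.0512), TRIM25 (-0.0599 to 0.00255), TRIM69 (-0.155 to 0.0106) and TRIM27 (-0.614 to 12.8, and -0.0496 with DESeq2). The 12.8 has both remaining empty vector libraries at 0 and is no bound; the cause of the other shifts was not tested. A jump ratio of 1.5, also chosen after seeing the data, gave the same 2 rows. Summing rows of 1 symbol changes nothing, since each symbol had 1 row, and the sum with TRIM39 was not run. Depth limits the members of low count: of those called, TRIM54, TRIM16L and TRIM6 had at most 34, 97 and 104 counts in a library, and TRIM7, not called, had 10 to 18.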
